A study of Mus musculus with 37 samples.

Results

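The smooth muscle contractile genes were followed as 10 genes read by symbol from the deposited count table, Acta2, Myh11, Tagln, Cnn1, Actg2, Des, Smtn, Myocd, Lmod1 and Synpo2, and all 10 of them were found among its 24421 gene symbols. Whole transcriptome sequencing (WTS) was done on upper urinary tract and bladder of wild-type female BALB/c mice, 37 libraries in all. Mice drank water with 0.05% N-butyl-N-(4-hydroxybutyl)nitrosamine (BBN), a carcinogen of the urothelium, or tap water. Treatment began at 6 to 7 weeks of age and lasted 18 weeks by the labels, and 17 to 20 weeks by the study's methods. UT is the upper tract on the side of a BBN-treated mouse that carried the cancer (11 libraries), UN is the side without cancer in a BBN-treated mouse (7 libraries), and U is the upper tract of a mouse on tap water (6 libraries, right and left sides of 3 mice). Bladders came from BBN-treated mice (BBN bladder, 10 libraries) and from the mice on tap water (bladder, 3 libraries). UT, UN and BBN bladder libraries of the same number came from the same mouse. UT 9 and BBN bladder 6 were left out of the fits, since the study's own clustering of UT, UN and U has no UT 9 and the library name of BBN bladder 6 carries a T, and both stand as crosses in the plot of levels. A wall sample of the ureter or bladder holds muscle, urothelium and connective tissue together, so in these bulk libraries fewer muscle cells and less RNA per muscle cell cannot be told apart.

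Smooth muscle forms the outer wall of the ureter and bladder, and its contraction moves urine down the ureter and empties the bladder. Force comes from smooth muscle myosin (Myh11) pulling on thin filaments of the smooth muscle actins (Acta2 and Actg2). Actin-binding proteins such as calponin (Cnn1), transgelin (Tagln), smoothelin (Smtn) and leiomodin (Lmod1) sit on these filaments, and desmin (Des) and synaptopodin-2 (Synpo2) tie them to intermediate filaments and dense bodies. Many of these genes are switched on by serum response factor together with its muscle cofactor myocardin (Myocd), and their joint expression is the usual mark of differentiated, contractile smooth muscle. Acta2 and Tagln are also made by myofibroblasts, and the muscle of blood vessels makes most of these genes too.

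Levels are given as CPM, a gene's share of all counts assigned to genes in its library. The libraries held between 3557697 and 18793560 counts. A long-transcript index was computed for each library as the median log2 deviation of 2187 genes with a transcript over 5000 bases minus that of 1410 genes with none over 1500 bases, the 10 genes and the gene lists below being left out. It was under -0.4 in 9 libraries, namely UN 2, UN 3, UN 6, UT 1, U 3L and BBN bladders 1, 3, 4 and 6, and it reached -2.21 in BBN bladder 6. Since the longest transcripts of the 10 genes run from 1333 bases in Actg2 to 9203 bases in Synpo2, the main results below are also given without these 9 libraries where that moved them most, an alternative chosen after the data were seen. The index as a covariate was a further such alternative, and beyond these the part of transcript length in the results was not tested.

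The 10 genes together took between 0.962% and 1.15% of all counts in the untreated bladder and between 0.191% and 0.352% in U. In UN their share ran from 0.0355% to 0.696%, in the 10 fitted UT libraries from 0.0387% to 0.264%, and in all 10 BBN bladders from 0.107% to 0.767%. The untreated groups were narrow and the BBN groups wide, with UN 1 and UN 4 above every U library and UN 2, UN 3, UN 6 and UN 9 below every one. On the log2 scale the SD between libraries was 0.787 for Myh11 in U and 1.93 in UT, and it was wider still in UN, where Myh11 ran from 25.6 to 2047 CPM.

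**Figure D1:**
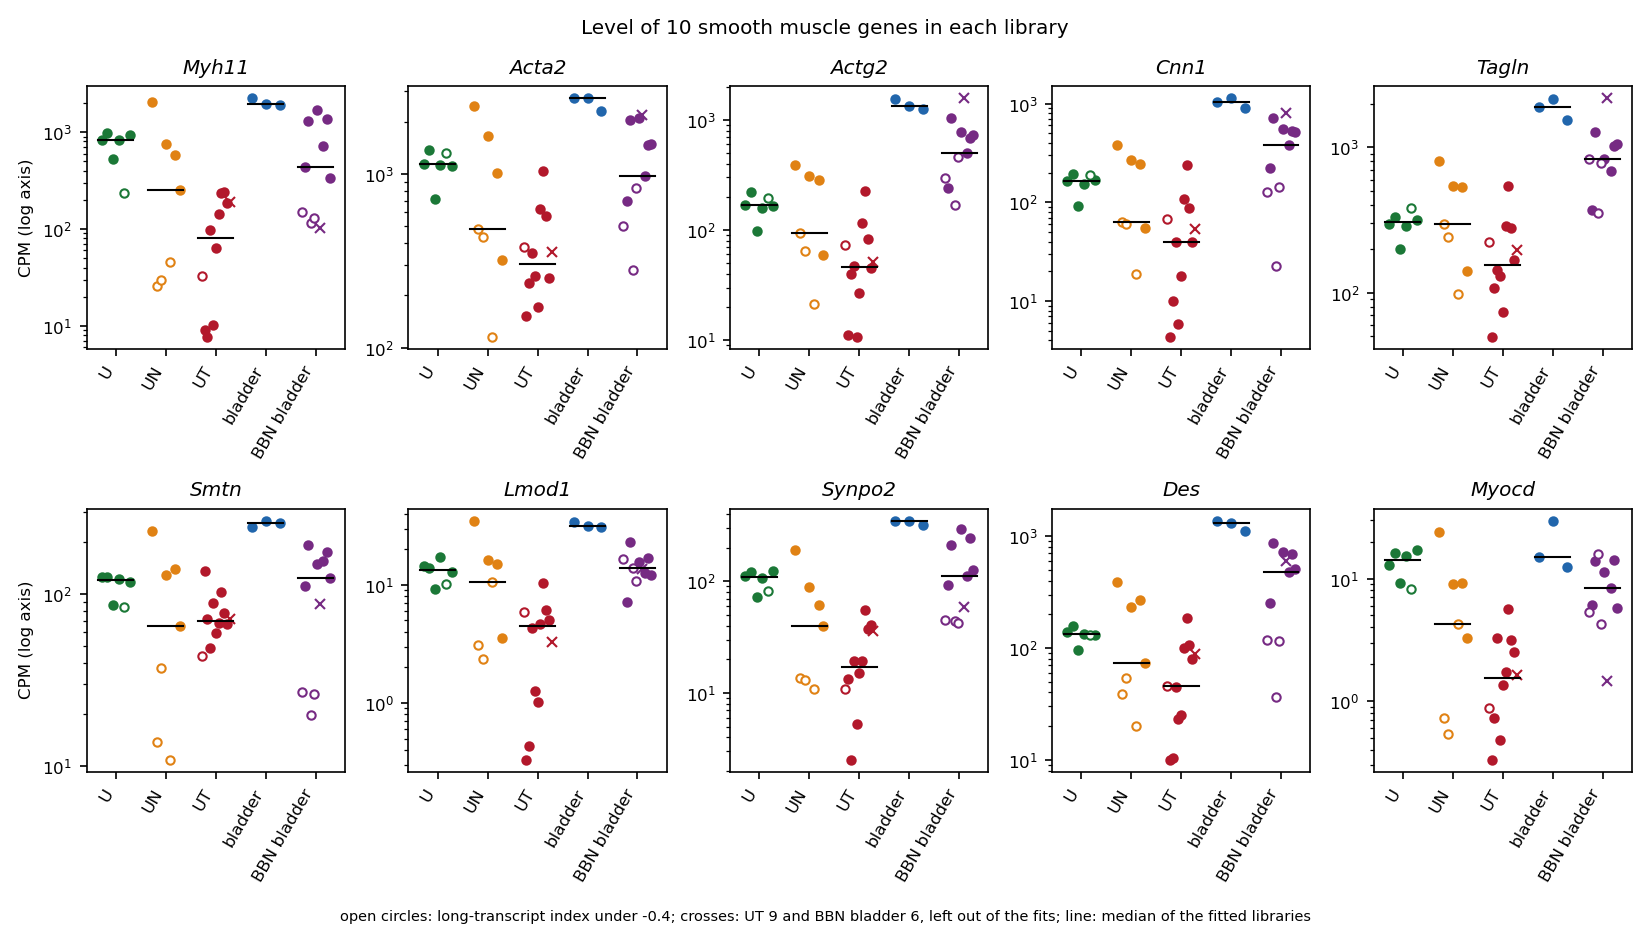
Level in CPM, on a log axis, of each of the 10 genes in each of the 37 libraries by group. Open circles are the libraries with a long-transcript index under -0.4, crosses are UT 9 and BBN bladder 6, and the line is the median of the fitted libraries. For 9 genes, all but Myocd, the 3 untreated bladders lie above all 6 U libraries and all 9 fitted BBN bladders.

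Myh11, the smooth muscle myosin heavy chain (GRCm38 chr16:14194535-14291372, minus strand), was among the genes that differed most between groups. Its level in U was lowest at 234 CPM in U 3L, with a median of 832 CPM and a highest value of 972 CPM. In UT the level ran from 7.63 CPM in UT 2 through a median of 80.1 CPM to 241 CPM in UT 7. Nearly every UT library was below nearly every U library (58 of 60 pairs), and the only U library within the range of UT was U 3L, which has a long-transcript index of -0.734. In UN the lowest value was 25.6 CPM, the median 254 CPM and the highest 2047 CPM, and the 3 UN libraries of a low index were the 3 lowest. The untreated bladders held 2249, 1934 and 1882 CPM, and the 9 BBN bladders from 115 to 1694 CPM with a median of 437 CPM. All BBN bladders were below all untreated bladders, and the 3 of a low index again took the lowest places.

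The actin genes are near copies of each other. Acta2 (chr19:34241090-34255590, minus strand) encodes the actin of vascular and early smooth muscle and Actg2 (chr6:83512905-83536265, minus strand) the enteric form, which is also high in bladder muscle. Their coding sequences in GENCODE vM21, of 1131 and 1128 bases, were 84.2% identical, and the longest run without a difference was 29 bases. How the counting dealt with reads that fit both is not given in the sources used here, so the split between the actins is uncertain to that degree.

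Acta2 in U ran from 714 CPM in U 2L through a median of 1136 CPM to 1364 CPM. In UT it ran from 152 CPM through a median of 304 CPM to 1038 CPM in UT 6, and in UN from 115 CPM through 481 CPM to 2469 CPM. UT 6 was the only UT library above any U library (59 of 60 pairs were lower). The untreated bladders held 2737, 2722 and 2299 CPM of Acta2, against 279 to 2105 CPM, with a median of 975 CPM, in the BBN bladders.

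Actg2 was at 98.0 to 221 CPM in U, with a median of 168 CPM, and at 1548, 1336 and 1255 CPM in the untreated bladders. In UT its range was 10.6 to 225 CPM with a median of 46.1 CPM, and in UN 21.4 to 385 CPM with a median of 94.0 CPM. The lowest UT values were those of UT 4 and UT 10, and the UT and U ranges overlapped. The BBN bladders ran from 170 to 1033 CPM, with a median of 498 CPM, all below the untreated bladders.

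The actin-binding genes differed among themselves. Cnn1, the calponin that binds actin and restrains myosin (chr9:22099216-22109630, plus strand), ran from 92.1 to 195 CPM in U and from 4.30 to 240 CPM in UT, with medians of 166 and 39.4 CPM. In the untreated bladders Cnn1 was at 1047, 1139 and 904 CPM and in the BBN bladders at 22.5 to 718 CPM. Cnn1 thus varied widely within UT, with UT 10, UT 4 and UT 2 under 10 CPM. Tagln, which encodes the actin cross-linker transgelin (chr9:45929619-45936058, minus strand), ran from 198 to 382 CPM in U, from 49.2 to 541 CPM in UT and from 97.9 to 805 CPM in UN. Its UT and U ranges overlapped widely, and its untreated bladders, at 1912, 2163 and 1557 CPM, were above all 9 BBN bladders (354 to 1286 CPM). The 3′ end of Tagln overlaps the end of Pcsk7 on the opposite strand, and whether the counting used strand is not given in the sources used here.

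Smtn, which encodes smoothelin of the contractile stress fibre (chr11:3517523-3540612, minus strand), was the steadiest of the 10 genes in UT. It ran from 84.8 to 127 CPM in U and from 43.5 to 137 CPM in UT, with medians of 121 and 70.0 CPM. Unlike for the other 9 genes, the highest UT value was that of UT 10, which had the lowest or second lowest UT level of the other genes except Synpo2. Lmod1, a nucleator of actin filaments in muscle (chr1:135324807-135368065, plus strand), was low throughout, at 9.29 to 17.2 CPM in U, 0.331 to 10.3 CPM in UT and 33.8, 31.7 and 31.1 CPM in the untreated bladders.

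Des, the intermediate filament protein of muscle (chr1:75360329-75368579, plus strand), ran from 95.8 to 159 CPM in U, with a median of 133 CPM, and was at 1381, 1305 and 1101 CPM in the untreated bladders. In UT Des ran from 9.99 to 185 CPM, with a median of 45.2 CPM, and in the BBN bladders from 36.4 to 861 CPM, with a median of 480 CPM. No U library came near the untreated bladders. An antisense gene, Gm15179, overlaps the end of Des and is also in the table. Synpo2, an actin-bundling protein of the dense body (chr3:123076519-123236149, minus strand), ran from 72.7 to 124 CPM in U and from 2.52 to 54.9 CPM in UT. All 10 UT libraries were below all 6 U libraries, as was true of 6.78% of the 15615 genes tested. Its untreated bladders, at 349.6, 349.5 and 322 CPM, were above its BBN bladders, at 42.6 to 291 CPM.

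Myocd, the muscle cofactor of serum response factor (chr11:65176561-65269989, minus strand), had the lowest level per length of the 10 genes in each of the 5 groups. It ran from 8.20 to 17.03 CPM in U, with a median of 14.1 CPM, and from 0.331 to 5.63 CPM in UT, with a median of 1.53 CPM. No UT library reached the lowest U library, as was true of 6.78% of the 15615 genes tested. In UN Myocd ran from 0.534 to 23.9 CPM, in the untreated bladders it was at 14.9, 29.8 and 12.5 CPM, and in the BBN bladders it ran from 4.22 to 15.8 CPM. It was the only one of the 10 genes whose BBN bladders overlapped the untreated bladders, and whose U libraries did so too.

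Compared per kilobase of the longest coding transcript, the order of the genes differed between the organs. In U, Acta2 came first with a mean of 554 ± 113 CPM per kb (SD, n = 6), above all 6 values of Tagln at 189 ± 38.3 CPM per kb. Actg2 (126 ± 30.9) and Myh11 (110 ± 43.5 CPM per kb) did not differ beyond their spread, with Actg2 the higher in 3 of 6 libraries. Cnn1, Des, Smtn, Synpo2, Lmod1 and Myocd followed. In the untreated bladder Acta2 (1271 ± 122), Tagln (1177 ± 191) and Actg2 (1035 ± 114 CPM per kb, n = 3) overlapped. Cnn1 and Des, which overlapped each other at 433 ± 49.7 and 417 ± 47.7 CPM per kb, were above Myh11 at 309 ± 30.3 CPM per kb there, whereas in U their means, at 67.2 and 43.4 CPM per kb, were below that of Myh11. Smtn, Synpo2, Lmod1 and Myocd followed in the bladder without overlap.

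UT was compared with U to find what differs in the cancer-bearing tract. All 10 genes had negative fold changes in UT, and 8 of the 10 were called lower, with an adjusted p under 0.1 and at least a 2-fold change, against 14.4% of the 15615 genes tested called lower and 18.6% called higher (edgeR quasi-likelihood test, Benjamini-Hochberg adjustment over all genes). Their median log2 fold change was -1.76, against 0.08 over all genes tested. Scaled to library totals in place of TMM, the median of all genes was 0.41, 4032 genes were called higher and 1559 lower, where TMM gave 2898 and 2246, and 7 of the 10 genes were called lower. Myh11 had the largest change, with a log2 fold change of -3.14 ± 0.78 (SE, edgeR adjusted p = 0.0025). Myocd came next at -3.03 ± 0.58 (edgeR adjusted p = 0.00028) and Synpo2 at -2.58 ± 0.52 (edgeR adjusted p = 0.00042). These were the 3 genes with the longest transcripts, and without the 9 libraries of a low index their calls stood. Lmod1 (-2.03 ± 0.57), Acta2 (-1.81 ± 0.43), Cnn1 (-1.70 ± 0.64), Actg2 (-1.64 ± 0.52) and Des (-1.40 ± 0.53) were also called lower. Tagln, at -0.93 ± 0.39, and Smtn, at -0.86 ± 0.37, had adjusted p-values of 0.057 and 0.059 and missed the fold threshold. All 16 fits that left out 1 library called 8 or 9 of the 10, against 13.6% to 15.0% of all genes lower. The 6 U libraries come from 3 mice: with the libraries of a mouse summed, 6 of 10 were called, without Cnn1 and Des, against 11.2% of all genes.

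Other tissue moved with UT. All 6 adipocyte markers (Adipoq, Plin1, Cidec, Lep, Retn and Fabp4) were called lower in UT than in U, and their summed level ran from 18663 to 28548 CPM in U, from 4146 to 25575 CPM in UN and from 35.5 to 10134 CPM in UT. Of 10 urothelial markers 5 were called higher and 2 lower, of 6 leukocyte markers 4 were higher, and all 4 tested of 6 kidney tubule markers were higher, with a sum of up to 2185 CPM in UT against at most 5.21 CPM in U and a median of 3.85 CPM in UT. Of the pericyte and vascular muscle markers (Rgs5, Notch3, Cspg4, Abcc9, Kcnj8 and Higd1b) 4 of 6 were lower, with sums of 134 to 269 CPM in U and 53.3 to 180 CPM in UT, and 3 of 5 endothelial markers were lower. Of the other lists, myofibroblast markers, which hold Acta2 and Tagln, had 2 of 6 higher and 1 lower, fibroblast markers 2 of 7 higher, skeletal muscle markers 1 higher and 2 lower of 5 tested, and both markers of interstitial cells of Cajal no call. No marker of these lists was at 0 in all libraries of UT or U. Their part in the result was not tested.

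**Figure D2:**
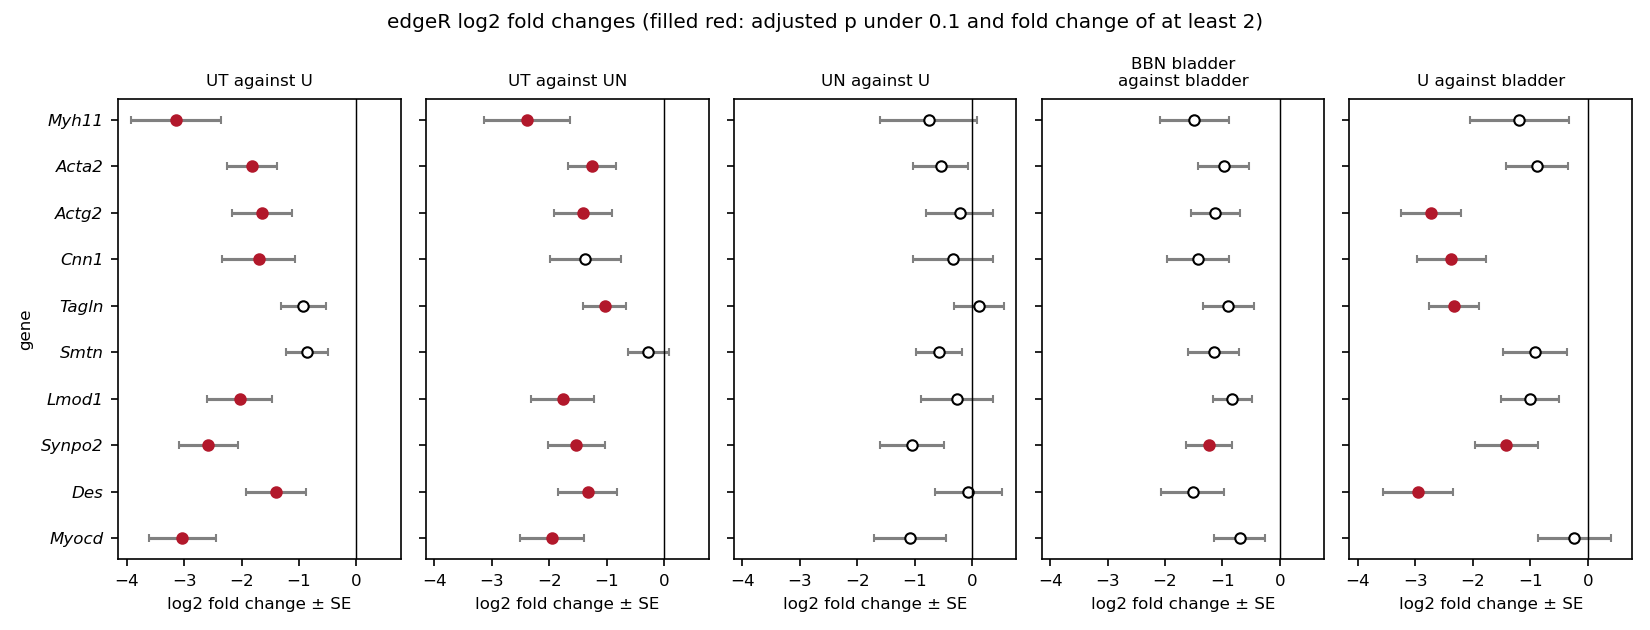
edgeR log2 fold change with its SE for each gene in 5 comparisons. Filled red points passed both the adjusted p of 0.1 and the 2-fold threshold, which 8 genes did in UT against U and in UT against UN, none in UN against U, 1 in BBN bladder against bladder and 5 in U against bladder.

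UN was compared with U to see whether the BBN-exposed tract without cancer differs from the untreated tract. None of the 10 genes was called (0 of 10 by edgeR and 0 by DESeq2, 0 with an unadjusted p under 0.05), against 1.65% of genes called lower and 11.9% called higher. The log2 fold changes ran from -1.08 ± 0.62 for Myocd and -1.05 ± 0.56 for Synpo2 to 0.11 ± 0.43 for Tagln. UN spread to both sides of U: in UN 1 the level of every one of the 10 genes was above the highest U library, and in UN 6 all but Lmod1 were below the lowest U library. limma-voom with weights per group called 3 of the 10 lower, against 5.94% of all genes in that fit. With the mouse as a random replicate block, also in limma-voom, 2 of the 10 were lower (Myocd and Synpo2), against 4.78% of all genes. Without UN 1 edgeR called 2 lower, against 1.79% of all genes. Without the libraries of a low index the median log2 fold change of the 10 genes was 0.01, against -0.44 with them.

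UT was set against UN, the side without cancer. In this fit 8 of 10 genes were called lower in UT, all but Cnn1 and Smtn, against 7.97% of genes called lower and 2.8% called higher. Myh11 had a log2 fold change of -2.39 ± 0.75 and Myocd one of -1.95 ± 0.56 (edgeR adjusted p = 0.042), while Smtn was at -0.27 ± 0.36. The fit shared its estimate of the spread with U. In a fit of UT and UN alone 0 of 10 were called, as with the mouse as a fixed block over the 6 mice with both libraries in the fit (replicate block, 0 of 10, 1 with an unadjusted p under 0.05, Lmod1 at -1.79 ± 0.62). With UT and UN alone 8 had an unadjusted p under 0.05, as had 3444 of the 15048 genes tested. DESeq2 on the 3 groups called 9, against 9.41% of all genes lower. Without UN 1 only 1 of the 10 was called, against 7.69% of all genes lower. Without UN 2, UN 4, UN 6, UT 2, UT 5L or UT 10, each left out in turn, 4 or 5 were, against 2.36% to 6.84%. Scaled to library totals, 1 of the 10 was called, and over all genes 338 were higher and 279 lower, where TMM gave 438 and 1245. Without the libraries of a low index 7 of the 10 were called, against 2.16% of all genes lower, and the median log2 fold change of the 10 went from -1.40 to -1.93. UT and UN overlapped for every one of the 10 genes. Of markers, 3 of 6 adipocyte, 2 of 6 pericyte and vascular muscle, 2 of 6 myofibroblast, 1 of 5 endothelial, 1 of 10 urothelial and 1 of 5 tested skeletal muscle genes were called lower in UT than in UN, and 3 of 4 tested kidney tubule genes higher. The pericyte and vascular muscle sum was 85.6 to 244 CPM in UN and 53.3 to 180 CPM in UT, and the urothelial sum 34.2 to 10035 CPM and 3832 to 11725 CPM. Their part in the result was not tested.

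Of the 7 mice with both sides, 6 are left when UT 9 is out, and the direction differed between them. Acta2, Actg2, Tagln, Cnn1, Lmod1 and Des were lower in UT than in UN in 5 of 6 mice, Myh11, Synpo2 and Myocd in 4 of 6, and Smtn in 3 of 6. With mouse 9 added, an alternative chosen after the data were seen, the counts were 6 of 7 for Actg2, Cnn1 and Lmod1, 5 of 7 for Acta2, Tagln, Des, Myh11, Synpo2 and Myocd and 3 of 7 for Smtn. In mouse 9 Acta2 was at 319 CPM in UN and 356 CPM in UT. Mice 1, 4 and 7 had lower values in UT for every one of the 10 genes. In mouse 4 Myh11 was at 757 CPM in UN and 10.2 CPM in UT, and in mouse 1 at 2047 and 32.5 CPM. Mouse 6 had higher values in UT for 9 of the 10 genes, all but Lmod1, with Acta2 at 115 CPM in UN and 1038 CPM in UT, and its UN library has the lowest total of the UN libraries, 4675081 counts, and a long-transcript index of -0.45. Over the 6 mice the mean difference of Myh11 was -1.81 ± 3.61 on the log2(CPM + 1) scale (SD, n = 6) and that of Lmod1 -1.23 ± 1.37.

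**Figure D3:**
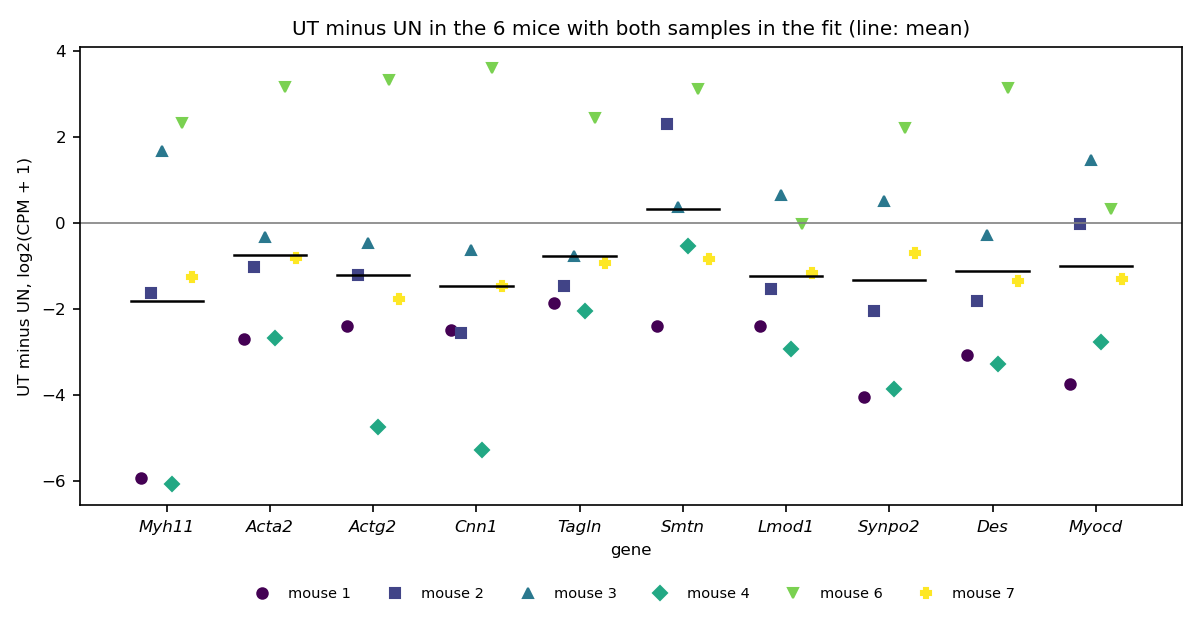
Difference of log2(CPM + 1) between UT and UN in each of the 6 mice with both libraries in the fit (mouse 9, whose UT library was left out, is not drawn), by gene, with the mean as a line. Points below 0 are lower in UT, as in 5 of 6 mice for Acta2, Actg2, Tagln, Cnn1, Lmod1 and Des, and mouse 6 lies highest for 8 of the 10 genes.

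The bladders of BBN-treated mice were compared with those of mice on tap water. For 9 of the 10 genes, all but Myocd, all 9 BBN bladders were below all 3 untreated bladders in CPM, as was true of 12.5% of the 17984 genes tested. The log2 fold changes were all negative, from -0.70 ± 0.44 for Myocd to -1.49 ± 0.60 for Myh11 and -1.52 ± 0.55 for Des, and 8 of the 10 had an unadjusted p under 0.05. Only Synpo2, at -1.23 ± 0.40 (edgeR adjusted p = 0.073), was called, against 5.47% of all genes called lower and 7.08% called higher. Left out one at a time, each of the 3 untreated bladders or BBN bladder 9 ended this call, with 2.49% to 5.11% of all genes lower. Without BBN bladder 2, 3, 4 or 5, 2 to 4 of the 10 were called, against 5.45% to 6.78% of all genes. Without BBN bladders 1, 3 and 4, left out for low RNA integrity in the study's sample sheet and also the fitted ones of a low index, 6 of 10 were called lower (Actg2, Cnn1, Des, Lmod1, Myh11 and Tagln, with log2 fold changes of -1.08 to -1.17), against 10.3% of genes. Synpo2 was then at -0.95 ± 0.32 and under the fold threshold.

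The 3 fitted BBN bladders of a low index stood apart for some genes and not for others. Smtn was at 19.96 to 27.0 CPM in these 3 and at 112 to 194 CPM in the other 6, and Synpo2 at 42.6 to 45.1 CPM against 92.9 to 291 CPM. Myocd and Lmod1 did not separate them, with Myocd highest of all 9 in BBN bladder 3. BBN bladder 6, outside the fits, was at 2195 CPM of Acta2, 2192 CPM of Tagln and 1580 CPM of Actg2, near or above the untreated bladders, and at 102 CPM of Myh11 and 1.45 CPM of Myocd, below all of the other bladders. Among markers, 5 of 10 urothelial, 2 of 7 fibroblast and 1 of 9 skeletal muscle genes were called lower in BBN bladder. Urothelial sums were 22074 to 23116 CPM in the untreated bladders and 1630 to 12427 CPM in the 9 BBN bladders. The skeletal muscle list had a median log2 fold change of 2.70, and 1 of 6 leukocyte markers was called higher. None of these markers was at 0 in all libraries of a group. Of the pericyte and vascular muscle markers 2 of 6 were lower, with sums of 189.9 to 199 CPM in the untreated bladders and 47.99 to 178 CPM in the BBN bladders, which did not overlap, and 1 of 5 endothelial and 1 of 6 myofibroblast markers were lower. Their part in the result was not tested.

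The untreated ureter was set against the untreated bladder. For 9 of the 10 genes all 6 U libraries were below all 3 bladders in CPM, as were 39.5% of the 18757 genes tested, and 5 of the 10 were called lower by edgeR, against 8.73% of genes called lower and 7.04% called higher. Des had the largest difference at -2.95 ± 0.60 (edgeR adjusted p = 0.0018), followed by Actg2 at -2.73 ± 0.52, Cnn1 at -2.37 ± 0.60, Tagln at -2.32 ± 0.44 and Synpo2 at -1.42 ± 0.55 (edgeR adjusted p = 0.091). Leaving out any 1 of the 9 untreated libraries ended the Synpo2 call, with 4 of the 10 called and 5.34% to 7.87% of all genes lower. Myh11 (-1.19 ± 0.86), Lmod1 (-1.005 ± 0.50), Smtn (-0.91 ± 0.56), Acta2 (-0.88 ± 0.54) and Myocd (-0.23 ± 0.64) were not called. Within the 3 mice all 6 comparisons of a ureter with the bladder of the same mouse were lower for each of these genes but Myocd, where 4 of 6 were, and the mean difference was -3.26 ± 0.26 for Des and -1.22 ± 0.39 for Acta2 on the log2(CPM + 1) scale. In a fit of the 9 untreated libraries with the mouse as a replicate block Myh11 was also called, at -1.14 ± 0.31, where 14.4% of all genes were lower. Scaled to library totals in place of TMM, the median of all genes moved from -0.01 to -0.32, the calls over all genes from 1321 higher and 1637 lower to 961 and 2093, and 4 of the 10 were called. U libraries hold far more adipocyte RNA than the bladders (18663 to 28548 CPM against 399 to 1229 CPM), with all 6 adipocyte markers called higher in U, 7 of 10 urothelial markers lower and 4 of 6 pericyte and vascular muscle markers higher. The pericyte and vascular muscle sums overlapped, at 134 to 269 CPM in U and 189.9 to 199 CPM in the bladders. Of these markers Rgs5 and Notch3 were lower in every U library than in every untreated bladder. Their part in the result was not tested.

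Whether BBN moved the genes differently in the tract without cancer (UN minus U) and in the bladder was tested as an interaction. None of the 10 genes was called (0 of 10 by edgeR and by DESeq2, with 0 and 1 at an unadjusted p under 0.05), where 1.65% of all genes were called higher in the ureter difference and 0.682% lower. The values ran from -0.36 ± 0.80 for Myocd to 1.49 ± 0.75 for Des, and 9 of 10 were positive. Scaled to library totals, 337 genes were higher and 61 lower, where TMM gave 309 and 128, and none of the 10 was called. Without the 9 libraries of a low index Des (1.71 ± 0.45), Tagln (1.65 ± 0.48), Actg2 (1.47 ± 0.54) and Cnn1 (1.42 ± 0.50) were called, against 7.72% of genes called higher in that fit. The planned fit without BBN bladders 1, 3 and 4 alone called 0 of 10, against 4.71% of genes higher.

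Ratios of 2 genes within a library do not move with library size. In U the log2 ratio of Tagln to Myh11 (CPM + 1) had a median of -1.51, and all U libraries but U 3L lay between -1.56 and -1.42. In UT it ran from -0.17 to 3.66 with a median of 1.09, and the groups overlapped only through U 3L at 0.703. The means were 1.53 ± 1.43 in UT and -1.14 ± 0.91 in U (SD, n = 10 and 6), a difference of 2.67 (exact permutation p = 0.00125, two-sided, 0.015 adjusted over 12 ratio tests, each taking the 6 U libraries of 3 mice as independent). With 1 mean per mouse the difference was 2.77 and did not pass (9 mice against 3, adjusted exact permutation p = 0.109). Acta2 to Myh11 differed by 1.83 in the same direction and just missed the threshold (two-sided exact permutation p = 0.0127, adjusted 0.0509), and it passed without the low-index libraries, at 2.08 (adjusted exact permutation p = 0.03), and without U 3L, at 2.18 (adjusted exact permutation p = 0.0133). In UT 2, UT 4 and UT 10, where Tagln to Myh11 stood at 3.66, 3.55 and 2.31, the long-transcript index was 0.04, -0.02 and 0.61.

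In UN the same ratio split with the index, and in the BBN bladders the ranges overlapped. Tagln to Myh11 was at 1.07 to 3.48 in the 3 UN libraries of a low index and at -1.35 to -0.12 in the other 4, and at 1.61 to 2.57 in the 3 fitted BBN bladders of a low index and -1.02 to 1.66 in the other 6. Neither difference from the control group passed, at 1.82 for UN against U (two-sided exact permutation p = 0.0513, adjusted 0.123) and at 0.842 for BBN bladder against bladder (p = 0.409, adjusted 0.491, exact permutation). Without U 3L the UN difference passed, at 2.19 (adjusted exact permutation p = 0.0133). Without all libraries of a low index it did not, at 0.813 (adjusted exact permutation p = 0.0635), and the BBN bladder difference was 0.0957 (adjusted exact permutation p = 0.952). Acta2 to Myh11 in UN against U went from 0.936 to 0.222 without them and passed neither time (adjusted exact permutation p = 0.393 and 0.452).

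**Figure D4:**
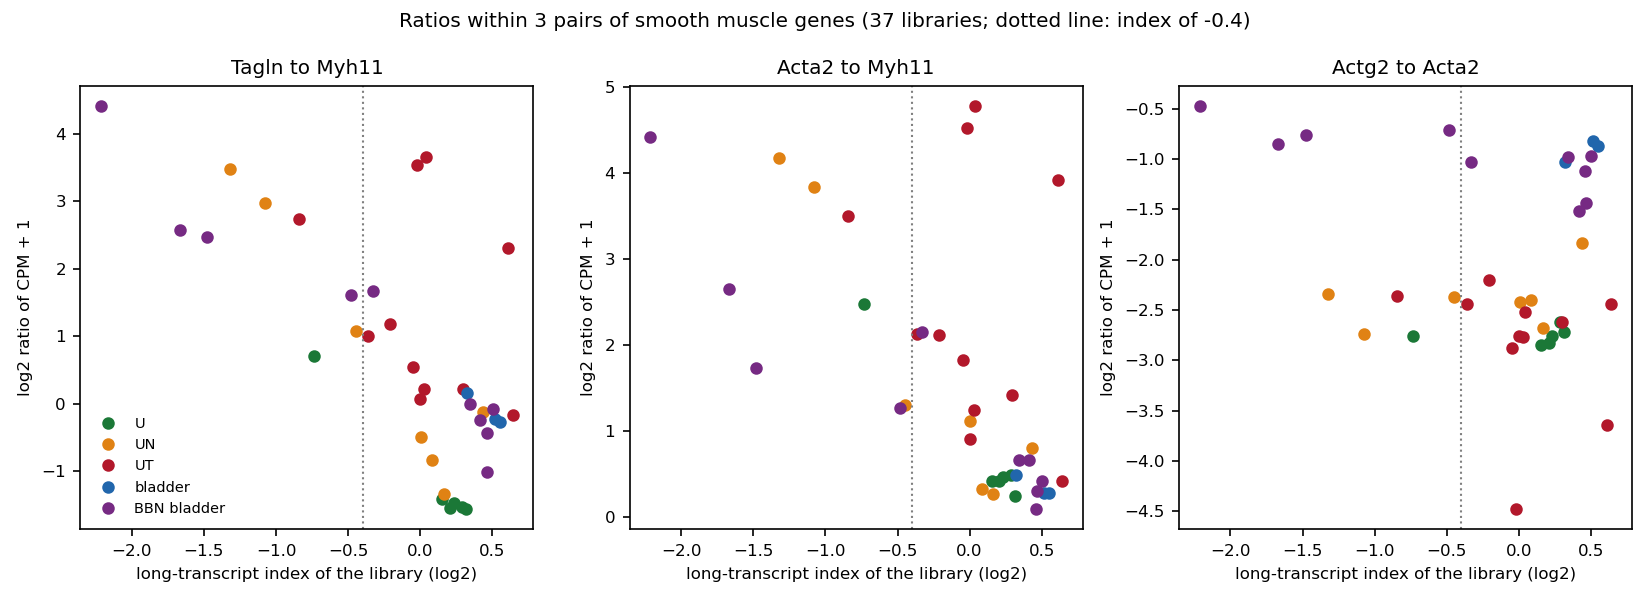
Log2 ratio of Tagln to Myh11, Acta2 to Myh11 and Actg2 to Acta2 in each library against its long-transcript index, coloured by group, with a dotted line at -0.4. Libraries of a low index have high ratios to Myh11, UT 2, UT 4 and UT 10 have high ratios at an index of -0.02 to 0.61, and Actg2 to Acta2 is higher in every bladder than in every upper tract library.

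Actg2 to Acta2 marked the organ. Its log2 ratio was -2.76 ± 0.083 in U and -0.907 ± 0.107 in the untreated bladders (SD, n = 6 and 3), and no U, UN or UT library had a ratio above -1.83 while no fitted bladder was below -1.52. The difference of -1.85 had the smallest p the design allows (two-sided exact permutation p = 0.0238) and did not pass over the 12 tests (adjusted 0.0714). UN and U differed by 0.357 (exact permutation p = 0.00816, two-sided, adjusted 0.049), UN being the higher at -2.40 ± 0.29 (SD, n = 7). This difference did not pass without UN 6 (adjusted exact permutation p = 0.0606), without the low-index libraries (adjusted exact permutation p = 0.0714) or with 1 mean per mouse. In all, 2 of the 12 ratio tests passed and 10 did not.

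The levels of the 10 genes were correlated across libraries. The correlation of each gene with the mean of the other 9 over all 37 libraries ran from 0.623 for Smtn to 0.957 for Des (Pearson's r of log2(CPM + 1), as a description, since libraries share organ, mouse and long-transcript index). Within the 10 UT libraries 9 genes were at 0.784 to 0.973 and Smtn was at -0.193. In the 9 BBN bladders Myocd was at 0.285 and Lmod1 at 0.42, the lowest there. Of 18959 genes ranked, those whose pattern over the 37 libraries was most like the mean of the 10 were Pdlim3 (r = 0.966), Synm (0.964), Adam33 (0.955), Sntg2, Dtna, Bves, Myl9, Jph2, Kcnmb1 and Myom1 (0.927). Pdlim3 encodes a muscle LIM protein, Synm an intermediate filament partner of desmin and Myl9 the regulatory light chain of smooth muscle myosin. Myl9 had means of 508 CPM in U, 170 CPM in UT and 1261 CPM in the untreated bladder.

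Of the wider contractile apparatus, 7 of 17 listed genes were called lower in UT than in U and none higher, against 14.4% of all genes lower, with a median log2 fold change of -0.76. Ldb3, a Z-disc protein, had a log2 fold change of -3.43 ± 0.51 and Pdlim3 one of -2.79 ± 0.68. Several actin-binding genes that are also used outside muscle had no call, among them Vcl (-0.06 ± 0.22) and Tpm1 (0.13 ± 0.26), chosen for mention after their values were seen. Of 17 genes that control contraction, 12 were called lower and none higher, with a median of -1.81. These were led by Mylk, the kinase that switches on smooth muscle myosin (-2.98 ± 0.55), Hspb6, a small heat shock protein of relaxation (-2.92 ± 0.47), and Ppp1r12a, a subunit of myosin phosphatase (-2.80 ± 0.50). The same lists had 1 lower each in UN against U, where 1.65% of all genes were lower, Ldb3 at -1.75 ± 0.56 and Hspb6 at -1.52 ± 0.51. In UT against UN 6 of 17 and 11 of 17 were lower, against 7.97% of all genes. In BBN bladder against bladder 3 of 17 and 6 of 17 were lower, against 5.47% of all genes, the largest being Itpr1, the calcium release channel, at -1.99 ± 0.24.

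Between the organs, genes of the lists also differed. Of the 17 genes of the contractile apparatus, 5 were called lower in U than in bladder, against 8.73% of all genes lower and 7.04% higher, led by Csrp1 (-3.19 ± 0.60), Synm (-2.32 ± 0.57) and Tpm1 (-2.03 ± 0.43). Of the 17 control genes 3 were lower and 1 higher. Kcnma1 and Kcnmb1, subunits of the large-conductance potassium channel, were lower (-1.61 ± 0.51 and -1.60 ± 0.42), as was Itpr1, and Pln, the inhibitor of the calcium pump, was higher by 1.88 ± 0.52.

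Of 8 regulators of smooth muscle transcription 3 were called lower and 1 higher in UT against U, where 14.4% of all genes were lower and 18.6% higher. In UN against U and in BBN bladder against bladder 1 was higher each, against 11.9% and 7.08% of all genes. Srf itself had a log2 fold change of 0.15 ± 0.22 in UT against U and its cofactors Mkl1 and Mkl2 of 0.57 ± 0.25 and 0.28 ± 0.21, none of them called and named here after their values were seen, beside -3.03 for Myocd. Tbx18, a factor of the ureteral mesenchyme, was lower in UT than in U, at -2.25 ± 0.45, and higher in U than in bladder by 2.91 ± 0.68. Foxf1 (-1.49 ± 0.63) and Gata6 (-1.22 ± 0.45) were lower in UT, and Klf4, which can repress smooth muscle genes and is also high in epithelium, was higher in UT (1.30 ± 0.28), in UN (1.53 ± 0.30) and in BBN bladder (2.16 ± 0.48).

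Serum response factor binds the CArG box, and its occurrence in promoters was counted because the genes moved together. RefSeq promoters on GRCm38.p6 were at hand for Acta2, Cnn1, Smtn, Lmod1, Synpo2 and Des. A CArG box in its strict form, CC, 6 letters A or T and GG, was sought in the 250 bases before the start. This strict form was found in 0 of these 6, in 5 of 35 other genes of the 3 lists (14.3%: Myl9, Myl6, Vcl, Ldb3 and Srf) and in 1.62% of 27025 genes. It was read on both strands at once because its reverse is again a CArG box. By its definition it leaves out boxes with a G or C in the middle. A looser form with 1 G or C among the middle letters was found in 1 of the 6, in 8 of the 35 and in 8.33% of all genes. That promoter was Acta2, with the looser form 84 and 34 bases before the start, which lies inside the gene as GENCODE draws it, and it is shown with the Myl9 promoter, which holds a CArG box 161 and a looser form 99 bases before the start. Capitals mark the boxes, in chr19:34255374-34255472 (minus strand) for Acta2 and chr2:156775288-156775463 (plus strand) for Myl9.
Acta2: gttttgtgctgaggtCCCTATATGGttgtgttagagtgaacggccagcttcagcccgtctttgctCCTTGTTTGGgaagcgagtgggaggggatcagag
Myl9: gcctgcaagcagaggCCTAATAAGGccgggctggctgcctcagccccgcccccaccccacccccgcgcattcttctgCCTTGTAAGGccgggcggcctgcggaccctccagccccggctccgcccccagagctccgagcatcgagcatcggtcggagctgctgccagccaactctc
Acta2 and Myl9 had log2 fold changes of -1.81 ± 0.43 and -1.92 ± 0.52 in UT against U. A match of letters is a description of the window and says nothing of binding, and elements further from the start were not searched.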

How the data were processed

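WTS was done on total RNA of 37 samples with SMARTer cDNA and Nextera XT libraries on a DNBSEQ-G400RS. The authors deposited 1 table of estimated counts per gene symbol on GRCm38. The labels name TopHat2 2.1.1 and Cuffdiff 2.2.1, and the program that made the counts and its use of strand are not given in the sources used here. Of the nonzero deposited values 21.1% were not whole, and all were rounded. Groups came from the labels. Genes were tested with edgeR 4.0.16 (quasi-likelihood test, TMM, filterByExpr, R 4.3.3), with Benjamini-Hochberg adjustment over all genes, and called at an adjusted p under 0.1 with at least a 2-fold change. UT (10), UN and U shared one fit, BBN bladder (9) and bladder another, and the comparison of organs and the interaction came from a fit of UN, U, BBN bladder and bladder. Ratios within a library used log2(CPM + 1) and exact permutation tests in scipy 1.17.1, called at an adjusted p under 0.05. Alternatives were DESeq2 1.42.0, limma-voom 3.58.1, other scalings, filters and samples, and the mouse as a replicate block. The fitting was tested on simulated data.

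The genes and lists were chosen with earlier results of these data known. All 10 genes were named, and of the 3 further lists at most the 3 called genes with the largest change in each direction, with Vcl, Tpm1, Srf, Mkl1 and Mkl2 in UT against U named outside this rule after their values were seen. The mouse numbers pair the samples because same-numbered samples come from the same animal. Deviations of UT and UN of the same mouse correlated by -0.191 to 0.0549, and those of U and bladder by -0.136 to 0.152. Replicates differed by more than sampling noise, with a chi-square per degree of freedom of at least 7.73. The totals of 3557697 to 18793560 counts limit the precision of low genes, and p-values for U rest on 2 sides of 3 mice. The fits without BBN bladders 1, 3 and 4 and without UN 6 were planned because the study's sample sheet lists these libraries with low RNA integrity, and its values are not used here. The result of one gene of the further lists is not reported here.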

Additional observations from a re-analysis of the deposited data

Results flagged for a closer look

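Of 52 groups of values examined, 5 held a library far from the others of its group, where chance gives about 1 in 20. Acta2 in U 2L was at 9.48 on the log2(CPM + 1) scale, with the other U libraries at 10.1 to 10.4. Cnn1 in U 2L was at 6.54, with the others at 7.27 to 7.61. In U 3L the log2 ratio of Acta2 to Myh11 was 2.48, with the others at 0.245 to 0.488, and that of Tagln to Myh11 was 0.703, with the others at -1.56 to -1.42. Cnn1 in BBN bladder 3, the library with the lowest total (3557697 counts), was at 4.55, with the others at 7.01 to 9.49. The causes were not tested.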

How the results depend on the processing

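In BBN bladder against bladder 1 of the 10 genes was called, with 5.47% of all genes lower. Brackets below give this share in each fit. DESeq2 called 6 (6.43%), limma-voom with weights 8 (12.3%) and RLE scaling 3 (5.17%). All 37 libraries in one fit gave 3 (8.14%), a filter of 1 CPM 4 (6.54%) and no filter 0 (3.73%). The long-transcript index as a covariate gave 3 (6.64%) and the span of library codes 4 (7.80%). The fits without BBN bladders 1, 3 and 4 or without the low-index libraries gave 6 (10.3%). In UT against UN 8 were called (7.97%). The count was 5 with all 37 libraries (1.71%), the index as a covariate (4.91%), the random replicate block (4.09%) or without UN 6 (2.36%). Without TMM it was 1 (1.79%). It was 0 with libraries summed per mouse, limma-voom with weights, the fixed replicate block or the 2 groups alone, where 0% of all genes were lower. In UN against U limma-voom called 3 with weights (5.94%) and 2 with the random replicate block (4.78%). For the interaction 4 were called without the low-index libraries (7.72% of all genes higher) and 0 without BBN bladders 1, 3 and 4 (4.71%). Of the ratio tests 0 passed with 1 mean per mouse and 1 without UN 6. Leaving out 1 library gave 0 to 4 calls in BBN bladder (2.49% to 6.78% of all genes lower). For UN against U it gave 0 to 2 (0.848% to 3.53%). It gave 1 to 9 in UT against UN (2.36% to 10.7%) and 8 to 9 in UT against U (13.6% to 15.0%). For U against bladder it gave 4 each time (5.34% to 7.87%), and 1 to 4 ratio tests passed. The ratio tests went to 4 without U 3L and to 1 without U 1L, U 2L, U 2R, U 3R, UN 2, UN 4, UN 6, UN 7 or UN 9. The replicate block changed no other count of calls among the 10 genes by over 1.5 times. The random block was fitted in limma-voom and the fixed block on the 2 groups compared alone, so these fits changed 2 choices. UN against U went from 1851 higher and 257 lower over all genes to 861 and 746 (random). Limma-voom with weights and no block gave 1357 and 927. UT against UN went from 438 and 1245 to 279 and 638 (random) or 0 and 0 (fixed), where the 2 groups alone gave 1 and 0. U against bladder went from 1321 and 1637 to 2389 and 2213 (fixed), where the 2 groups alone gave 2402 and 2188. The part of the block alone was not tested. Under every alternative run, 6 to 9 of the 10 were called in UT against U and 4 to 7 in U against bladder.

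Several small values changed sign. In the interaction Myocd was at 0.17 without TMM and 0.35 without the low-index libraries, and Synpo2 at -0.091 by limma-voom with weights, -0.18 with the index as a covariate, -0.10 with the random block and -0.065 without BBN bladders 1, 3 and 4. In UN against U, without the low-index libraries Actg2 was at 0.34, Cnn1 at 0.28, Des at 0.54 and Lmod1 at 0.026; without TMM Actg2 was at 0.051 and Des at 0.23. Des was at 0.011 with the code span and 0.10 without UN 6, and Tagln at -0.073 by limma-voom with weights and -0.10 with the random block. Smtn in UT against UN was at 0.00083 by limma-voom with weights, 0.11 with the fixed block and 0.011 with the random block, and the Actg2 to Acta2 difference of UT and U at 0.0064 with a pseudocount of 4 CPM. Des in UN against U was at 0.079 without UN 2, 0.071 without UN 3 and 0.033 without UN 9, the Tagln log2 fold change, UN against U, at -0.0022 without UN 4, and the Actg2 to Acta2 difference of UT and U at 0.010 without UT 10. With 1 library left out, the range was -0.15 to 0.10 for this ratio, -0.44 to 0.10 for Des and -0.13 to 0.25 for Tagln in UN against U, -0.065 to 1.02 for Myh11 and -0.35 to 0.39 for Synpo2 in the interaction, -0.45 to 0.23 for Myocd in U against bladder and -0.45 to 0.14 for Smtn in UT against UN. The causes were not tested.

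Without TMM the calls over all genes in BBN bladder went from 1274 higher and 984 lower to 960 and 918. The index as a covariate and the removal of the low-index libraries were chosen after seeing the data. Counting depth limits Myocd and Lmod1, which lay under 1 CPM in some UT libraries.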
